A study of Mus musculus with 22 samples.

Results

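The genes described here are the mouse heat shock protein and DnaJ chaperone genes: every gene row whose symbol is an Hspa, Hspb, Hspd, Hspe, Hsph or Hsp90 gene, or a numbered Dnaja, Dnajb or Dnajc gene. That gave 72 of the 24060 gene rows. Chaperones bind proteins that are unfolded and keep them from aggregating until they fold or are degraded. Hsp70 proteins do this in cycles of ATP hydrolysis that J-domain proteins (the DnaJ genes) start and that Hsp110 proteins help to end by exchanging the nucleotide, Hsp90 proteins act on clients that are nearly folded, and small heat shock proteins hold unfolding proteins without ATP. Many members are made in every cell, others rise after heat or protein damage through the transcription factor Hsf1, and members of the endoplasmic reticulum (ER) rise in the unfolded protein response.

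RNA was measured in spinal cord of 11 young adult female mice. All carried mGFAP-Cre, a Cre recombinase driven by a mouse Gfap promoter, and RiboTag, an allele by which cells that have or had active Cre make ribosomes with a hemagglutinin (HA) tag. From each mouse the ribosome-bound RNA was pulled down through the tag (HA IP, the astrocyte fraction per the labels), and the RNA left behind was kept as flow-through, so that 22 libraries came from 11 animals. The groups were uninjured mGFAP-Cre-RiboTag mice (uninjured, n = 4), mGFAP-Cre-RiboTag mice with a severe crush at thoracic level 10 (WT SCI, n = 4) and mGFAP-Cre-RiboTag-STAT3-LoxP mice with that injury (STAT3-CKO SCI, n = 3). The injured groups gave the central 3 mm of the lesion at 14 days. STAT3 is a transcription factor of cytokine signalling, and the same Cre removes it. Uninjured animals without STAT3 were not analysed here. The comparisons ask how chaperone RNA differed with injury and with the STAT3 genotype, in each fraction, and between the fractions.

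One property of the deposited counts touches every HA IP value below. Within an animal, the HA IP count was at least as high as the flow-through count in almost every gene row: the flow-through count was the higher one in 0 to 3 rows per animal, of 8963 to 16320 rows with a flow-through count. Against the flow-through library of another animal of the same group, the HA IP count was the lower one in 0.86% to 78.8% of those rows. In 396 to 1432 rows per animal both fractions had exactly the same count above 0, although HA IP totals were 4.52 to 9.36 times the flow-through totals. For the 72 chaperone rows the flow-through count was never above the HA IP count of the same animal, and with other animals' libraries it was in up to 48 rows. These are the counts that would be seen if the deposited HA IP libraries contained the flow-through reads of the same animal; how this came about is not given in the sources used here and was not tested. Outside ribosomal rows the flow-through counts came to 10.4% to 28.9% of the HA IP counts. The HA IP comparisons were therefore recomputed with the same animal's flow-through counts subtracted, an alternative chosen after seeing the data, and values after subtraction stand beside the main results. The fractions are not independent measurements of an animal either way.

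Libraries held 31292491 to 59337089 counts in HA IP and 3898755 to 11242654 in flow-through. The ribosomal row Rn45s took 12.6% to 26.7% of the HA IP counts of uninjured animals, 89.0% to 96.2% for WT SCI animals and 52.2% to 89.2% for STAT3-CKO SCI animals, with similar shares in flow-through. This share and injury cannot be told apart. The 72 rows together had 197749 to 382126 counts per library in uninjured HA IP, 4618 to 21353 in WT SCI HA IP and 744 to 4056 in WT SCI flow-through, and the last are the least precise. Levels are CPM values, the count as a share of the TMM-scaled library size times 1e6, and are relative within 1 fraction. Fold changes are log2 values from edgeR with their standard error (SE), and a gene was called at a Benjamini-Hochberg adjusted p under 0.05 over all genes tested. Of the 72 members, 64 had enough counts to be tested in HA IP and 61 in flow-through. Hspa1b, Hspb3, Hspb9, Dnajb7, Dnajb8, Dnajc5b, Dnajc5g and Dnajc22 were too low in both, and Hspb2, Dnajb3 and Dnajb13 in flow-through.

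Stat3 RNA checked the genotype labels. Uninjured animals 42, 79, 65 and 154 had HA IP levels of 12.2, 14.2, 15.5 and 13.3 CPM. WT SCI animals 9935, 9874, 9843 and 9596 had 66.2, 56.2, 26.3 and 35.0 CPM. STAT3-CKO SCI animals 186, 531 and 270 had 7.85, 10.1 and 12.3 CPM. All STAT3-CKO values lay below all WT SCI values (log2 -2.17 ± 0.34 SE, adjusted p = 0.00331, and -2.52 after subtraction, adjusted p = 0.00329). Flow-through Stat3, with a WT SCI range of 17.7 to 59.6 CPM and a STAT3-CKO SCI range of 14.2 to 27.3 CPM, did not pass the test (-0.66 ± 0.37, adjusted p = 0.441). In HA IP, the astrocyte filament gene Gfap was 594 to 920 CPM in uninjured, 1738 to 3146 CPM in WT SCI and 356 to 674 CPM in STAT3-CKO SCI animals. Levels below keep this order of animals.

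In HA IP, chaperone genes moved in both directions with injury. Of 64 members tested, 5 rose and 7 fell in WT SCI against uninjured, where 15.8% and 10.9% of all genes tested rose and fell. The members' median log2 change was -0.34 beside 0.00 over all genes. The small heat shock proteins Hspb1 and Hspb6 rose, the cytosolic Hsp90ab1 rose, and so did the J-domain genes Dnajb2 and Dnajc13. Hspa5 and Dnajb9 of the ER, the ER membrane J protein gene Dnajb12, the Hsp110 gene Hspa4l, the classical Hsp70 partner Dnajb1, and Dnajc24 and Dnajc25 fell. After subtraction 4 rose and 7 fell, 9 of them called both ways, while 11.2% and 9.35% of all genes rose and fell. Dnajb2, Dnajc24 and Hspa4l were no longer called, and Hsp90b1 and Hspb11, a member of this family by name that serves in cilium transport, fell. Without 1 of the uninjured or WT SCI libraries the count lay between 7, without uninjured animal 154, and 16.

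**Figure D1:**
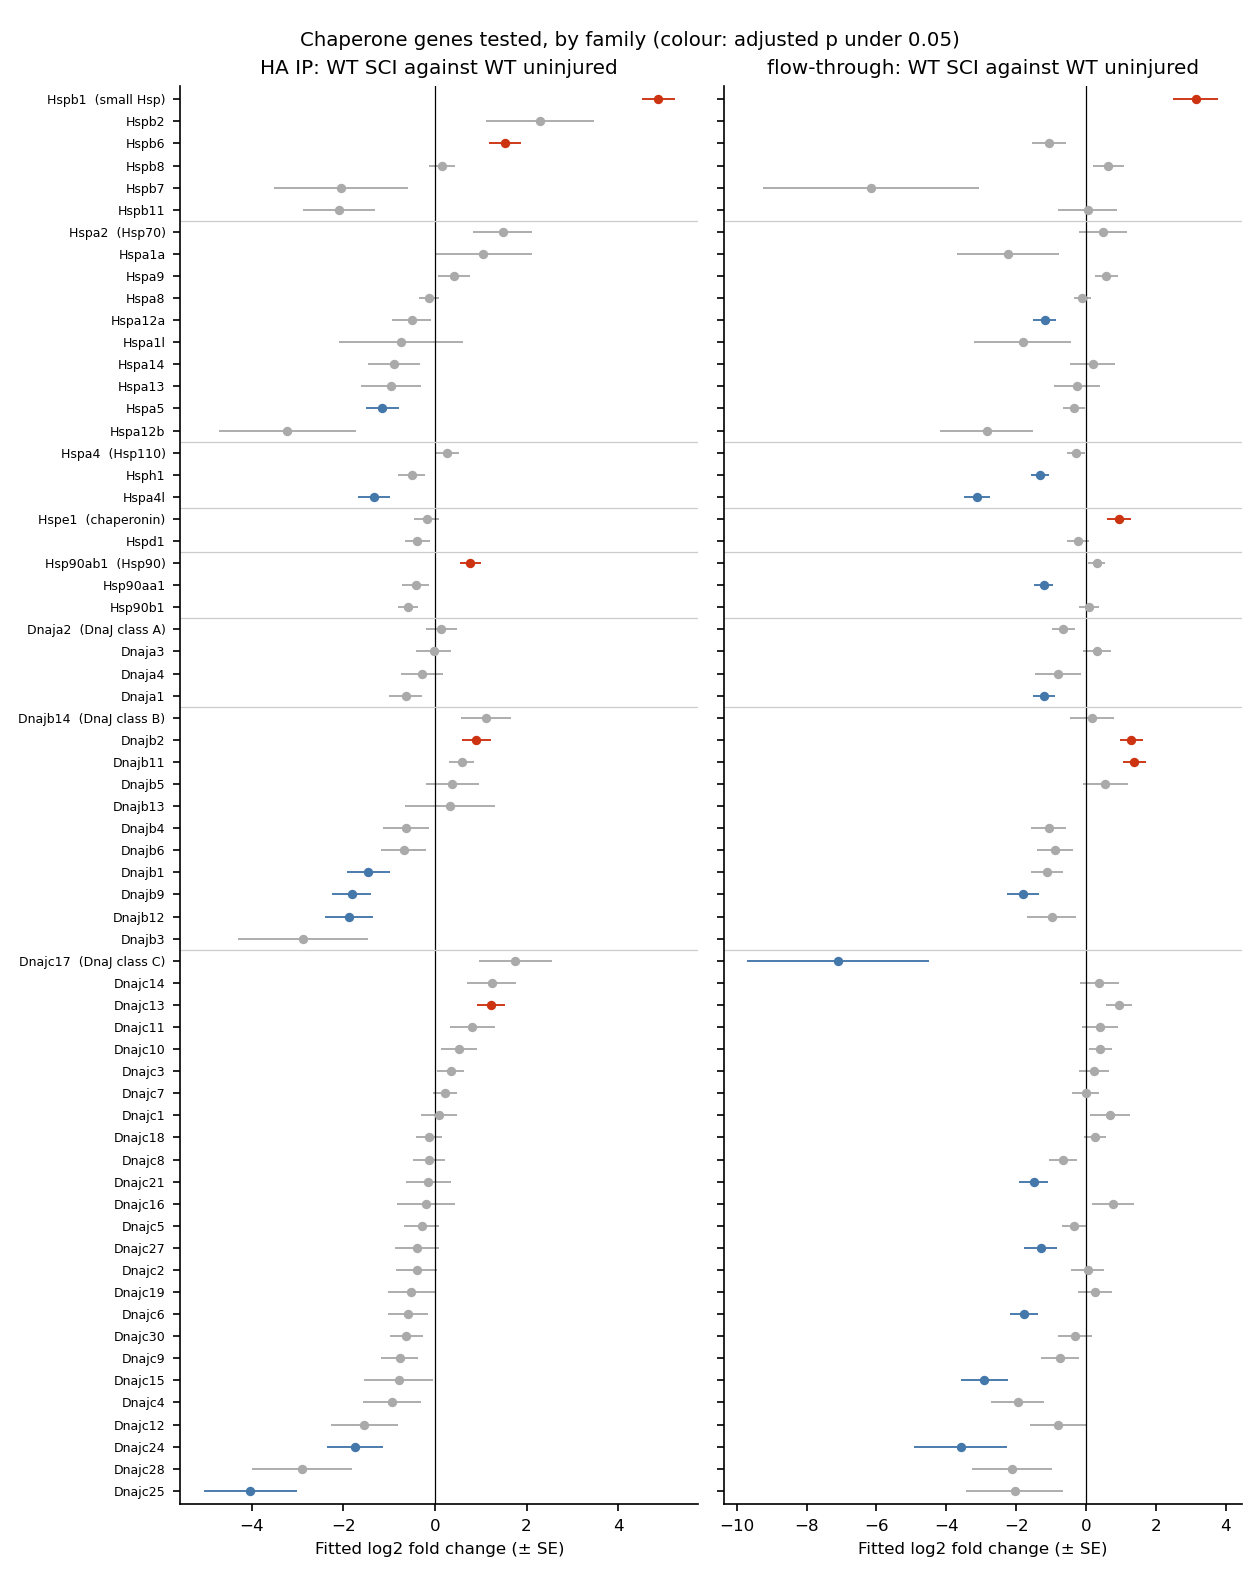
Fitted log2 change of each tested member between WT SCI and uninjured (x axis, with a different range in each panel), by chaperone family, in HA IP on the left and flow-through on the right. Bars are the SE, red and blue points are called members that rose and fell, grey ones were not called, and the fitted value of Dnajc17 in flow-through rests on 0 counts in WT SCI. Hspb1 lies farthest to the right in both panels.

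Hspb1 encodes Hsp27, a small heat shock protein that holds unfolding proteins and binds actin. Its HA IP level was 1.58, 2.93, 2.85 and 3.15 CPM in uninjured animals. In WT SCI it was 91.9, 102, 52.5 and 63.0 CPM, and in STAT3-CKO SCI 3.36, 1.5 and 2.33 CPM. All WT SCI animals lay far above all others, while the STAT3-CKO and uninjured ranges overlapped. The rise with injury was 4.88 ± 0.36 on the log2 scale (adjusted p = 5.79e-08) and STAT3-CKO SCI was lower than WT SCI by a log2 of -5.04 ± 0.42 (adjusted p = 3.76e-06). STAT3-CKO SCI against uninjured gave -0.16 ± 0.35 (adjusted p = 0.836). After subtraction the WT SCI levels were 82.8, 110, 67.1 and 79.2 CPM, and the changes were 5.07 and -5.19 (adjusted p = 1.7e-07 and 2.58e-06). The WT SCI values rest on 282 to 918 counts per HA IP library.

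Hspb6 encodes Hsp20, the small heat shock protein best known from muscle. It was 9.83, 16.1, 13.6 and 12.5 CPM in uninjured, 46.3, 56.6, 17.8 and 29.3 CPM in WT SCI, and 16.5, 8.39 and 9.79 CPM in STAT3-CKO SCI HA IP. The WT SCI animals were all above the rest, with animal 9843 closest to them. The injury rise was 1.53 ± 0.35 (adjusted p = 0.00338, 1.65 after subtraction, adjusted p = 0.00391). STAT3-CKO SCI was lower than WT SCI by -1.70 ± 0.39 (adjusted p = 0.0366, -1.73 after subtraction, adjusted p = 0.0402). That genotype call was lost without WT SCI animal 9874 or STAT3-CKO animals 531 or 270 (adjusted p = 0.0639, 0.166 and 0.159), with only the 2 groups in the fit (0.154) and with the Rn45s share as a covariate (0.999). The Hspb1 genotype call was kept in all of these.

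**Figure D2:**
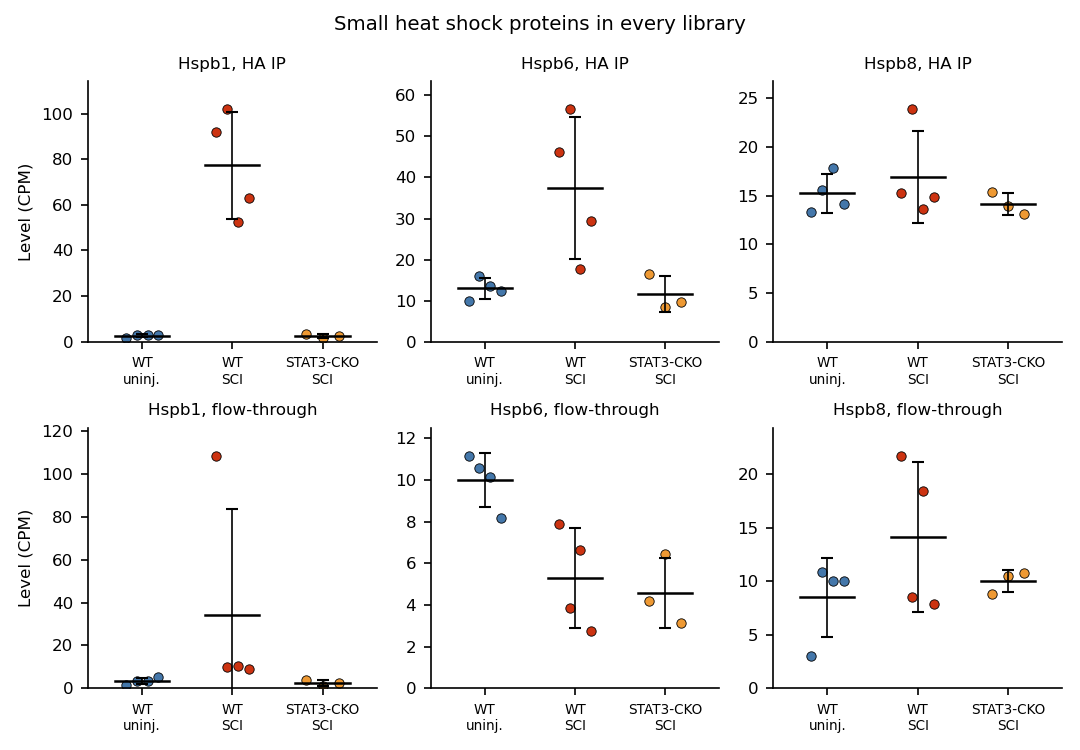
Levels of Hspb1, Hspb6 and Hspb8 (CPM, y axis) in the HA IP libraries (top) and flow-through libraries (bottom) by group, 1 point per animal, with mean and SD as lines. In HA IP the 4 WT SCI points of Hspb1 and Hspb6 lie above those of the other groups, and in flow-through 1 WT SCI animal is high for Hspb1.

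In flow-through, Hspb1 was 1.48, 3.42, 3.64 and 5.11 CPM in uninjured, 108, 10.1, 10.3 and 8.86 CPM in WT SCI, and 3.77, 1.17 and 2.59 CPM in STAT3-CKO SCI. Animal 9935, with 55 counts, was far above the others, which held 13, 14 and 26 counts. The rise was 3.14 ± 0.65 (adjusted p = 0.000535) and 1.51 without animal 9935 (adjusted p = 0.0303). STAT3-CKO SCI against WT SCI gave -3.61 ± 0.79 (adjusted p = 0.0646), a difference called by DESeq2 (adjusted p = 0.00169) and with no filter on low counts (3.24e-06). Summed markers of other cell types in WT SCI flow-through ranged from 0 to 23.2 CPM for skeletal muscle, highest in animal 9874, and from 0 to 4.43 CPM for endothelium, with Pecam1, Cldn5, Tek and Cdh5 at 0 counts. Fibroblast and pericyte markers were 3.70 to 6.11 CPM in uninjured and 21.7 to 72.3 CPM in WT SCI flow-through, with 4 of 5 tested called higher and Rgs5 at 0 counts in WT SCI. Summed astrocyte markers in flow-through were 250 to 297 CPM in uninjured, 719 to 986 CPM in WT SCI and 302 to 660 CPM in STAT3-CKO SCI animals. The part of any of these cell types in the Hspb1 difference was not tested. Hspb8, the small heat shock protein of chaperone-assisted autophagy, gave 0.15 ± 0.28 in HA IP and 0.64 ± 0.45 in flow-through with injury (adjusted p = 0.717 and 0.289). Hspb2 had 47 counts in WT SCI HA IP, all in animal 9596.

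The windows from 250 bases before to 50 after RefSeq transcript starts were searched for motifs, on both strands, in 75 windows of 58 member symbols and in 32851 windows of all genes. The head-to-head heat shock element GAANNTTC, the letters of the Hsf1 site, was in 16 member windows (21.3%) against 7.86% of all windows. Its 14 genes include Hspb1, Hspb6, Hspa1a, Hspa1b, Hspb8, Hspd1, Hspe1, Hsph1 and Dnaja1, which differ in how they moved. The tail-to-tail form TTCNNGAA was in 10.7% of member and 8.52% of all windows, and can overlap the other in longer arrays. Some windows overlap, so that the same site of either form was counted more than once. This was so for the stretch shared by Hspd1 and Hspe1 and for the overlapping windows of Dnajb6 and of Hsph1. The STAT element TTCNNNGAA was in 3 member windows, of Dnajc7, Dnajc13 and Dnajc27 (4% against 8.3%), and in neither Hspb1 nor Hspb6. TGACGTGG, an ATF6 core, was in the window of Dnajc25 (1.33% against 0.676%), and CCAAT in 40% against 37.4%. No other form of ATF6 site was searched, so ER members without this core may hold one. A match is a stretch of letters and not a bound site. The stretches from 150 to 41 bases before the start are shown for both small heat shock proteins that rose, for the classical heat-inducible Hspa1a, which was low in every library, and for Dnajc13, which rose, with heat shock or STAT elements in capitals (RefSeq, GRCm38.p6, strand of the gene).
Hspb1, chr5:135887769-135887878, plus strand: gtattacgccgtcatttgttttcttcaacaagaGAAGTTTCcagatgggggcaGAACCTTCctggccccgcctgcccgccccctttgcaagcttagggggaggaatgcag
Hspb6, the downstream of 2 starts, chr7:30553151-30553260, plus strand: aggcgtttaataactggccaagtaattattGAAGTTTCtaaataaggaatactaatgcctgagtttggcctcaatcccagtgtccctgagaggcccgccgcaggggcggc
Hspa1a, chr17:34972197-34972306, minus strand: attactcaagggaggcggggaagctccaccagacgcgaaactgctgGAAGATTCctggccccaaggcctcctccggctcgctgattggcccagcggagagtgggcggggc
Dnajc13, chr9:104262971-104263080, minus strand: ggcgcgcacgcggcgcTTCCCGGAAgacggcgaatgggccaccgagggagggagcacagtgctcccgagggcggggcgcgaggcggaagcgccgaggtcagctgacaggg
Hspb1 carries 2 heat shock elements, 117 and 97 bases before the start, Hspb6 carries 1 at 120 before its downstream start and Hspa1a 1 at 104. The window of the upstream Hspb6 start held no heat shock or STAT element. The STAT element of Dnajc13 starts 134 bases before its start.

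Among the cytosolic members, the classical inducible Hsp70 genes Hspa1a and Hspa1b were at most 2.6 CPM in every library of both fractions. They share 58.8% of the 50-base words of Hspa1a, so reads between them are uncertain. The constitutive Hsp70 gene Hspa8 was 128, 136, 142 and 152 CPM in uninjured and 96.8, 136, 134 and 144 CPM in WT SCI HA IP, overlapping ranges (-0.13 ± 0.21, adjusted p = 0.694, -0.27 after subtraction, adjusted p = 0.428). Hsp90ab1, the constitutive cytosolic Hsp90, rose from 178, 233, 236 and 205 to 419, 320, 336 and 380 CPM with no overlap (0.77 ± 0.22, adjusted p = 0.0154, 0.82 after subtraction). Its call was lost without uninjured animals 42 or 154 (adjusted p = 0.0537 and 0.055). The stress-inducible Hsp90aa1 was 83.4, 84.7, 90.1 and 90.6 CPM in uninjured and 45.9, 40.4, 54.9 and 118 CPM in WT SCI. Animal 9596 was above and the other 3 WT SCI animals below the uninjured range (-0.42 ± 0.29, adjusted p = 0.297), and without it Hsp90aa1 fell by 0.89 on the log2 scale (adjusted p = 0.0104). Dnaja1, a J-domain partner of Hsp70, did the same: 25.7, 7.92, 15.0 and 38.1 CPM in WT SCI, with a fall of 1.09 without animal 9596 (adjusted p = 0.0275).

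Per exon length (RPKM), Hsp90ab1 was the most abundant member in all 6 groups, at 71.0 ± 9.11 (SD, n = 4) in uninjured and 121 ± 14.9 in WT SCI HA IP. Hspa8, Hsp90aa1 and Hsp90b1 followed in uninjured HA IP, at 32.4, 22.2 and 20.1. In WT SCI HA IP, Hspb1 took the second place at 75.0 ± 22.6, above Hspa8 at 29.7 ± 4.88, and Hspb6 was at 16.3 ± 7.52, within the spread of Hsp90aa1 at 16.5 ± 9.15. Summed over the 72 members, HA IP held 1181 ± 39.7 CPM in uninjured, 1340 ± 171 in WT SCI and 1156 ± 172 in STAT3-CKO SCI animals.

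In flow-through, 4 members rose and 12 fell of 61 tested in WT SCI against uninjured, where 16.7% and 14.3% of all genes rose and fell. The median was -0.34 beside -0.09 over all genes. Of 13 tested members of a heat-inducible list, 4 fell and 2 rose, with a median of -1.07. Hspa4l, an Hsp110 nucleotide exchange factor, was 30.6, 34.9, 42.1 and 35.8 CPM in uninjured, 3.94, 6.19, 3.69 and 3.07 CPM in WT SCI, and 17.6, 16.1 and 17.7 CPM in STAT3-CKO SCI. The 3 groups did not overlap, with STAT3-CKO SCI in between. The WT SCI levels rest on few counts, since 1 count was 0.774 CPM in animal 9874 and 0.341 CPM in animal 9596. The change was -3.13 ± 0.37 (adjusted p = 2.53e-07) with injury in WT. Its relative Hsph1 fell from 71.9, 76.6, 77.2 and 90.8 to 39.4, 26.3, 31.7 and 31.7 CPM (-1.31 ± 0.26, adjusted p = 0.000402). Hsp90aa1 fell from 164, 174, 204 and 181 to 53.2, 64.3, 64.2 and 124 CPM (-1.21 ± 0.27, adjusted p = 0.00135). Dnaja1 fell by the same log2 of 1.21 (adjusted p = 0.00411). None of these groups overlapped.

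**Figure D3:**
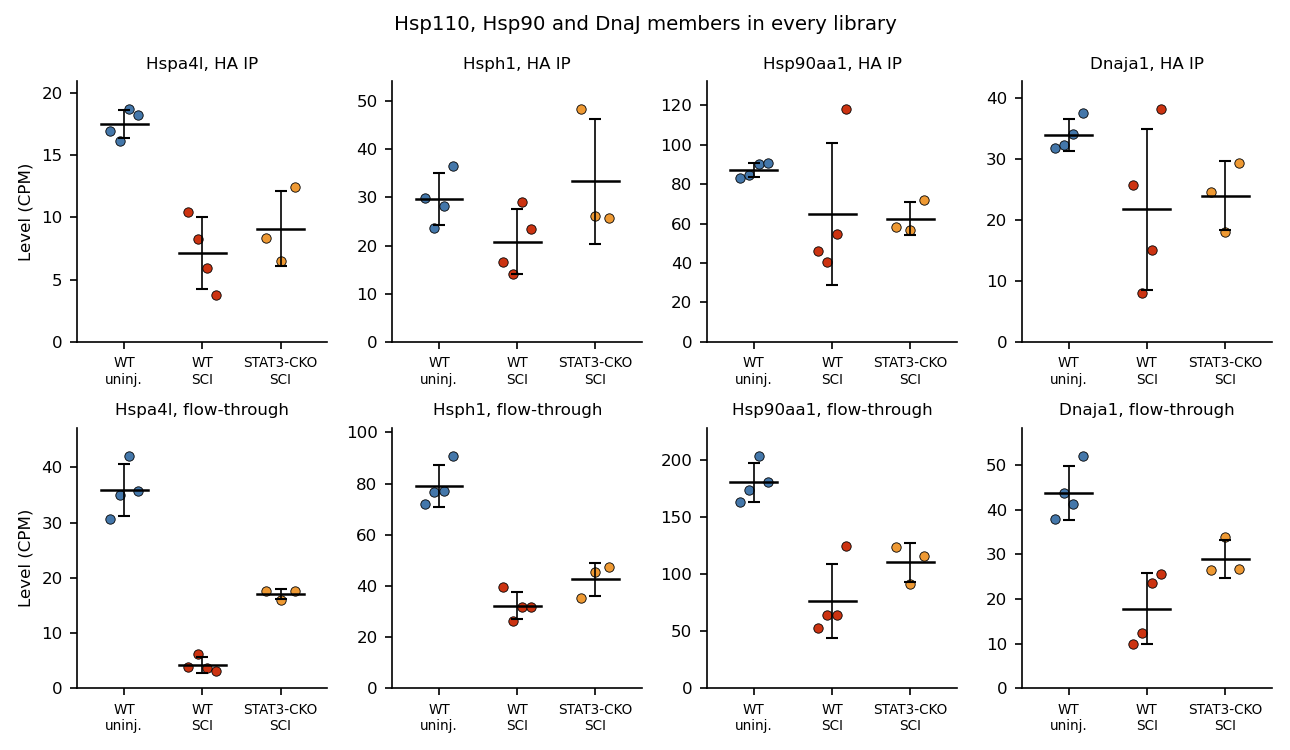
Levels of Hspa4l, Hsph1, Hsp90aa1 and Dnaja1 (CPM, y axis) in each HA IP and flow-through library by group, 1 point per animal, with mean and SD as lines. In flow-through the WT SCI animals lie below all uninjured animals for these 4 genes, and in HA IP animal 9596 is high for Hsp90aa1 and Dnaja1.

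Other falls in flow-through included Dnajc6, the neuronal auxilin that uncoats clathrin vesicles, from 53.2, 40.5, 46.3 and 44.0 to 1.97, 16.3, 5.90 and 23.2 CPM (-1.77 ± 0.39, adjusted p = 0.00118). Dnajc15 of the mitochondrial inner membrane (-2.91 ± 0.68, adjusted p = 0.00174), the ER gene Dnajb9 (-1.79 ± 0.46, adjusted p = 0.00407), the ribosome biogenesis factor Dnajc21 (-1.5 ± 0.42), the divergent Hsp70 Hspa12a (-1.18 ± 0.34) and Dnajc27 (-1.30 ± 0.46) fell too. In WT SCI flow-through, Dnajc15 was 1.971, 0, 1.475 and 1.022 CPM and Dnajb9 1.971, 3.097, 2.951 and 4.77 CPM, both on few counts. Dnajc24, of diphthamide synthesis, had 1 count in WT SCI against 252 in uninjured flow-through, a ratio of 9.99 (95% interval 1.78 to 396, counting error only). Dnajc17, of the spliceosome, had 0 against 144, at least 1.90-fold lower with 3 counts over the group as the floor. Both calls (adjusted p = 0.0406 and 0.0417) were lost without any one of several libraries (up to 0.0907 and 0.122), and that of Dnajc17 with no filter and by DESeq2 (0.0516 and 0.0786). The risers were Hspb1, Dnajb11 (1.38 ± 0.34, adjusted p = 0.0028), Dnajb2 (1.30 ± 0.32, adjusted p = 0.00325) and Hspe1, the mitochondrial Hsp10 (0.95 ± 0.34, adjusted p = 0.0353). The Hspe1 groups overlapped, and its call was lost with RLE scaling, no filter, DESeq2 or 2 groups in the fit (0.0529 to 0.0786) and without 6 of the 8 libraries in turn (up to 0.158, without animal 9843).

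Summed neuron markers in flow-through were 2746 to 3435 CPM in uninjured, 355 to 787 CPM in WT SCI and 945 to 1384 CPM in STAT3-CKO SCI. Microglia and macrophage markers were 33.1 to 65.1 CPM, 2387 to 7527 CPM and 2653 to 3755 CPM in the same order. Their part in the chaperone changes was not tested. In bulk RNA, fewer cells of a type and less RNA per cell cannot be told apart. In HA IP the neuron markers were 390 to 701 CPM in uninjured and 90.04 to 214 CPM in WT SCI as deposited, and 96.3 to 129 and 27.4 to 81.5 CPM after subtraction. Microglia and macrophage markers in HA IP were 9.68 to 23.1 CPM in uninjured and 503 to 1967 CPM in WT SCI as deposited, and 4.62 to 19.2 and 74.3 to 558 CPM after subtraction. Astrocyte markers in HA IP were 3860 to 4812 CPM in uninjured and 3065 to 5407 CPM in WT SCI, and 4330 to 6240 and 3880 to 5880 CPM after subtraction. Of the 7, Gfap was called higher and Aqp4, Gja1, Slc1a3 and Aldoc lower in WT SCI. Markers of oligodendrocyte precursors were 135 to 241 CPM and 381 to 500.0 CPM, and 163 to 262 and 416 to 588 CPM after subtraction, with 4 of 4 called higher both ways. Oligodendrocyte markers in HA IP were 1195 to 1599 CPM in uninjured and 5294 to 8142 CPM in WT SCI, and 925 to 1340 and 5650 to 9400 CPM after subtraction. The HA IP level of Hspa4l, 16.9, 16.1, 18.6 and 18.2 CPM in uninjured and 10.4, 8.26, 5.93 and 3.77 CPM in WT SCI (-1.33 ± 0.35, adjusted p = 0.0095), moved with subtraction to 14.7, 13.5, 15.5 and 14.9 CPM against 10.9, 8.08, 6.78 and 4.08 CPM. The groups still did not overlap, but the call was lost (-0.996, adjusted p = 0.0853).

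In the ER of HA IP libraries, 3 of 10 tested members fell with injury and 0 rose, with a median of -0.25, where 10.9% of all genes fell and 15.8% rose. After subtraction 4 fell (median -0.40), where 9.35% of all genes fell. Hspa5, or BiP, the Hsp70 of the ER, was 38.0, 27.7, 30.4 and 34.2 CPM in uninjured and 12.1, 6.67, 26.5 and 13.7 CPM in WT SCI, with animal 9843 just under the uninjured range (-1.15 ± 0.36, adjusted p = 0.0224, -1.37 after subtraction, adjusted p = 0.0332). This call was lost without uninjured animals 42 or 154 (adjusted p = 0.0647 and 0.0536). Dnajb9, which recruits Hspa5 to misfolded proteins, was 11.8, 15.1, 16.9 and 14.7 CPM in uninjured and 2.61, 1.58, 5.75 and 6.31 CPM in WT SCI (-1.82 ± 0.43, adjusted p = 0.00436, -1.77 after subtraction). STAT3-CKO SCI values of Dnajb9, 14.6, 6.09 and 14.6 CPM, overlapped both groups. Hsp90b1, the ER Hsp90, was 94.2, 72.8, 74.7 and 82.7 CPM in uninjured and 56.7, 51.9, 48.6 and 58.4 CPM in WT SCI, with no overlap (-0.59 ± 0.23, adjusted p = 0.0606, -0.76 after subtraction, adjusted p = 0.0384). Dnajb11, the Hspa5 cofactor that rose in flow-through, gave 0.58 ± 0.28 (adjusted p = 0.124) in HA IP and 0.27 after subtraction (adjusted p = 0.577).

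**Figure D4:**
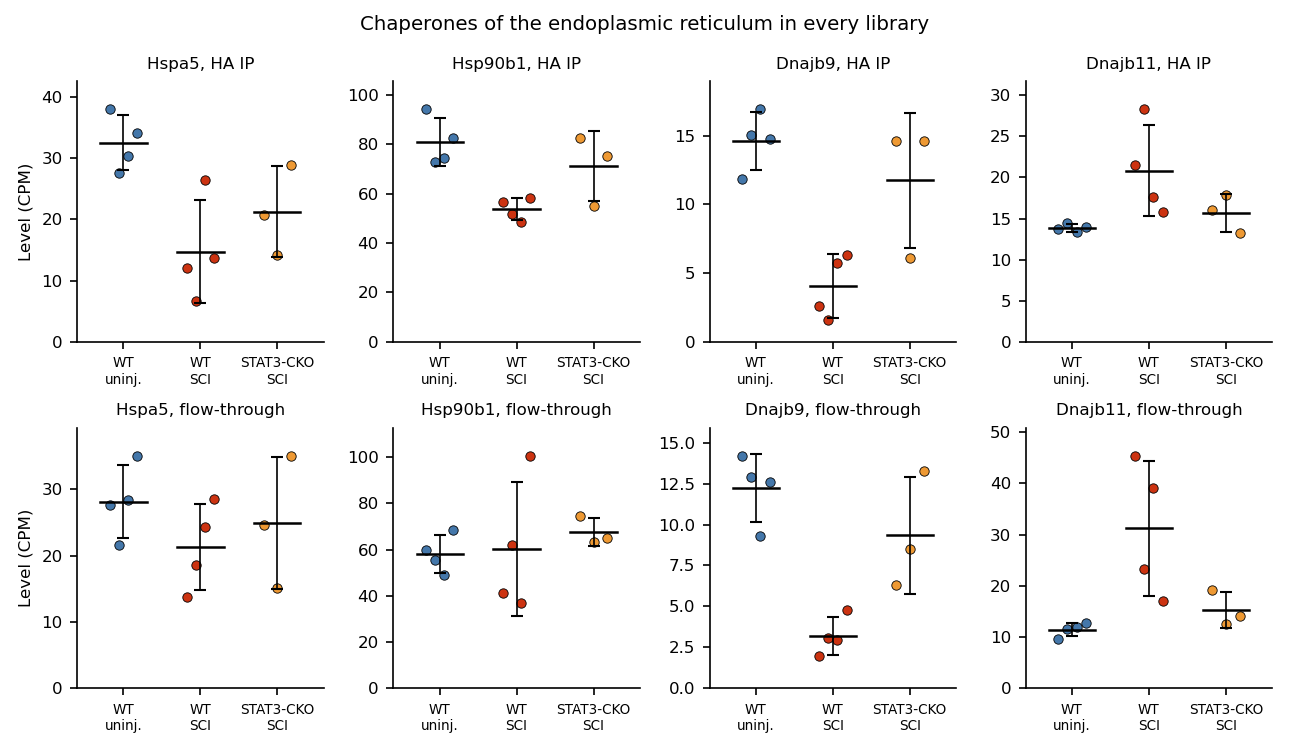
Levels of the ER members Hspa5, Hsp90b1, Dnajb9 and Dnajb11 (CPM, y axis) in each HA IP and flow-through library by group, 1 point per animal, with mean and SD as lines. WT SCI animals lie below uninjured ones for Hspa5, Hsp90b1 and Dnajb9 in HA IP, and above them for Dnajb11 in flow-through.

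Of 24 tested genes of the unfolded protein response outside the members, 8 rose and 1 fell in HA IP (median 0.68), where 15.8% and 10.9% of all genes did. The stress factor Atf3 (4.59 ± 0.69, adjusted p = 8.06e-05, 3.04 after subtraction, adjusted p = 0.036) and Edem1, of ER-associated degradation (2.01 ± 0.31, adjusted p = 9.62e-05, 1.63 after subtraction), rose, and the disulfide isomerase Pdia3 fell (-0.82 ± 0.25, adjusted p = 0.0189, -0.95 after subtraction, and not called without uninjured animals 65 or 154, 0.0543 and 0.0556). After subtraction 4 rose and 1 fell, where 11.2% and 9.35% of all genes did. In flow-through 7 rose and 1 fell, where 16.7% and 14.3% of all genes did. Of 27 cochaperones, 5 rose and 4 fell in each fraction, and 4 rose and 1 fell in HA IP after subtraction, beside these same shares of all genes. Fkbp5, an Hsp90 cochaperone that limits glucocorticoid receptor signalling, rose by 3.44 ± 0.49 in HA IP (adjusted p = 5.34e-05, 3.70 after subtraction) and 2.42 ± 0.49 in flow-through (adjusted p = 0.00044). Hspbp1, an Hsp70 nucleotide exchange factor, rose by 2.23 ± 0.40 and 0.88 ± 0.32 (adjusted p = 0.000405 and 0.0418), and by 2.49 in HA IP after subtraction. Grpel1, the exchange factor of mitochondrial Hsp70, fell by 2.29 and 2.71 (adjusted p = 0.00299 and 0.00581), and by 2.29 in HA IP after subtraction. Bag2, an Hsp70 cochaperone, was 1.15 to 1.60 CPM in uninjured and 0.0686 to 0.339 CPM in WT SCI HA IP and fell (adjusted p = 0.0268). This call was lost after subtraction (0.0844) and without uninjured animals 42, 79, 65 or 154 or WT SCI animal 9596 (0.0533 to 0.0716). Sil1, the exchange factor of Hspa5, rose in flow-through (1.99 ± 0.58, adjusted p = 0.0101). Asns, the asparagine synthetase of the amino acid response, fell there (-1.90 ± 0.57, adjusted p = 0.0129). Of 10 mitochondrial stress genes, Yme1l1, an inner membrane protease, fell in HA IP (-1.51 ± 0.51, adjusted p = 0.0341, -1.99 after subtraction, adjusted p = 0.0482). Its call was lost without any uninjured animal or WT SCI animals 9874 or 9596 in turn (0.0593 to 0.0884), and after subtraction 1 of the 10 rose and 2 fell. In flow-through the protease subunit Afg3l2 fell (-1.77 ± 0.42, adjusted p = 0.00199) and the factor Atf5 rose (2.47 ± 0.63, adjusted p = 0.00381). The cytosolic CCT chaperonin had 0 of 9 subunits called in HA IP (edgeR; DESeq2 called 0, and 0 had an unadjusted p under 0.05) and 2 of 8 higher in flow-through (Cct2 0.73 and Cct4 1.17). The Cct2 call was lost with RLE scaling, no filter, ribosomal rows removed or 2 groups in the fit (0.0543 to 0.156) and without any library but that of animal 9596 (0.0573 to 0.0992). Hsf1, the regulator of heat shock genes, was 18.4, 11.4, 14.0 and 11.1 CPM in uninjured and 0, 3.10, 0.738 and 1.36 CPM in WT SCI flow-through, and fell (-3.21 ± 0.65, adjusted p = 0.000421). Those WT SCI levels rest on few counts. Hsf4, a heat shock factor best known from the lens, was 0 CPM in 3 of 4 WT SCI flow-through libraries and fell there (adjusted p = 0.0456), a call lost without animals 79, 65, 154, 9935, 9874 or 9843 in turn (0.0509 to 0.136). In HA IP, Hsf1 gave -0.62 ± 0.62 (adjusted p = 0.485) and -0.24 after subtraction. The alpha crystallin Cryab, a small heat shock protein outside the symbol rule, fell in flow-through (-1.07 ± 0.32, adjusted p = 0.0139, 0.0542 without uninjured animal 79) and gave 0.05 ± 0.28 in HA IP.

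The mitochondrial members had 0 of 8 called with injury in HA IP (median -0.28), where 15.8% and 10.9% of all genes rose and fell. None was called by DESeq2 or had an unadjusted p under 0.05. The mitochondrial Hsp70 gene Hspa9 was 35.5, 42.4, 47.6 and 39.8 CPM in uninjured and 73.3, 33.0, 48.1 and 65.8 CPM in WT SCI, overlapping ranges (0.41 ± 0.34, adjusted p = 0.393, 0.37 after subtraction). In STAT3-CKO SCI it was 119 CPM in animal 186 and 39.2 and 36.5 CPM in the others. Dnajc15 was 5.30, 6.92, 8.51 and 6.45 CPM in uninjured HA IP. In WT SCI HA IP it was 0.978, 0.339, 13.6 and 0.96 CPM, with animal 9843 above and the others below the uninjured range. In STAT3-CKO SCI HA IP it was 0.841, 1.85 and 2.47 CPM. In flow-through, 1 of 8 mitochondrial members rose and 1 fell, Hspe1 and Dnajc15, where 16.7% and 14.3% of all genes did.

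Of the DnaJ genes in HA IP, Dnajc5, the cysteine string protein of synaptic vesicles, was 30.3, 19.0, 18.2 and 28.3 CPM in uninjured and 5.87, 12.6, 28.4 and 30.6 CPM in WT SCI, so that the groups overlapped (-0.29 ± 0.38, adjusted p = 0.603, -0.27 after subtraction). In the same fraction, Dnajc13, an endosomal J protein, was 7.15, 6.10, 7.11 and 6.29 CPM in uninjured, 19.2, 11.2, 16.9 and 15.2 CPM in WT SCI and 12.5, 14.2 and 13.6 CPM in STAT3-CKO SCI. Both injured groups lay above all uninjured animals. The rise was 1.22 ± 0.30 in WT SCI (adjusted p = 0.00514, 1.27 after subtraction, adjusted p = 0.03) and 1.01 ± 0.31 in STAT3-CKO SCI (adjusted p = 0.0441, 1.11 after subtraction, adjusted p = 0.132). Dnajc13 was the 1 member called of 64 in STAT3-CKO SCI against uninjured HA IP, with 1 higher and 0 lower, where 7.7% and 2.08% of all genes were called. The median was -0.19 beside 0.00, and the call was lost without any 1 of the 7 libraries (0.0775 to 0.159) and with RLE scaling, no filter or ribosomal rows removed (0.0626 to 0.0807). DESeq2 called 3 members here, Dnajc13 higher and Dnajc4 and Hspa4l lower, and the fit with 2 groups called 11, with 3 higher and 8 lower, Dnajc13 among them. The shares of all genes called by DESeq2 and by the fit with 2 groups are not given here, so these counts cannot be set against them. Dnajb2, a J protein with ubiquitin-binding motifs, rose in WT SCI (0.91 ± 0.31, adjusted p = 0.0386), a call lost after subtraction (0.79, adjusted p = 0.127), with no filter (0.0565) and without 6 of the 8 libraries in turn (0.0701 to 0.0999). Dnajb12 (-1.88 ± 0.52, adjusted p = 0.0119) and Dnajb1 (-1.45 ± 0.46, adjusted p = 0.0256) fell, the latter not without uninjured animals 79, 65 or 154 (0.0644 to 0.0794). Dnajc25 had 2 counts in WT SCI against 1002 in uninjured HA IP, a ratio of 16.5 (4.55 to 136). Dnajc24 (-1.75 ± 0.60, adjusted p = 0.0387) overlapped between groups through animal 9874 and lost its call without 7 of the 8 libraries in turn (0.0583 to 0.0933).

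Between the genotypes after injury, HA IP had 0 members higher and 2 lower of 64 in STAT3-CKO SCI against WT SCI, Hspb1 and Hspb6, where 0.596% and 0.562% of all genes were called. The median was 0.16 beside 0.03 over all genes. Both calls stood after subtraction. DESeq2 called 6 members, adding Dnajb9, Dnajb12 and Dnajc12 as higher and Dnajc17 as lower, and the fit with 2 groups called Hspb1 alone. For these settings too the shares of all genes are not given here. In flow-through, 1 of 61 members was higher, Hspa4l, and 0 lower, where 0.0867% and 0.0315% of all genes were called. Hspa4l was 2.06 ± 0.39 higher (adjusted p = 0.0259), and its call was lost without WT SCI animals 9843 or 9596 or any STAT3-CKO animal (0.0604 to 0.142), with 2 groups in the fit (0.299) and with the Rn45s share as covariate (0.994). Against uninjured, STAT3-CKO SCI flow-through had 0 members higher and 4 lower of 61, where 10.4% and 3.53% of all genes were called (median -0.15 beside 0.00). These were Hspa4l (-1.06 ± 0.32, adjusted p = 0.0218), Hsph1 (-0.89 ± 0.27, adjusted p = 0.0269), Dnajc6 (-1.27 ± 0.40, adjusted p = 0.0307) and Hspa12a (-1.03 ± 0.34, adjusted p = 0.0434). DESeq2 called 9 members lower, these 4 among them, and the fit with 2 groups 7 lower and 1 higher, again without the shares of all genes. Each of the 4 lost its call without STAT3-CKO animals 186 or 531 (0.0584 to 0.243), and without some of the uninjured animals. WT SCI enters both genotype and injury comparisons and uninjured animals enter both injury comparisons, so these are not independent.

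Between the fractions of uninjured cord, 23 members were higher and 12 lower in HA IP of 65 tested, where 26.4% and 24.2% of all genes were higher and lower. This main fit did not pair the libraries by animal, and counts with the animal as a block follow below. The median was 0.12 beside 0.02. By compartment, 8 of 10 ER members were higher and 0 lower, among them Dnajc3, an ER inhibitor of the PERK kinase (1.69 ± 0.23, adjusted p = 0.000133), Hsp90b1 (0.74 ± 0.15, adjusted p = 0.00211) and Hspa5 (0.47 ± 0.18, adjusted p = 0.0442, lost without any one of the 4 animals, 0.0675 to 0.123, and with RLE scaling, 0.0633). Of 8 mitochondrial members 4 were higher and 0 lower: Hspa9, the mitochondrial Hsp70 (0.86 ± 0.20), the chaperonin pair Hspd1 and Hspe1 (0.47 ± 0.13 and 0.57 ± 0.16) and Dnaja3. Of 14 heat-inducible members 2 were higher, that chaperonin pair, and 5 lower: Hsph1 (-1.15 ± 0.16, adjusted p = 0.000157), Hsp90aa1 (-0.79 ± 0.12, adjusted p = 0.000248), Hspa4l (-0.77 ± 0.13), Hspa8 (-0.53 ± 0.13) and Dnajb1 (-0.67 ± 0.20). The call of Hspe1 was lost without animals 65 or 154, and that of Dnajb1 without 79, 65 or 154 (0.063 to 0.0997). Hspd1 lost its call without 79 or 65 (0.0567 and 0.0745), and Hspa8 without 65 (0.0543). Hspa2, an Hsp70 best known from the testis, was higher (2.21 ± 0.23, adjusted p = 1.61e-05), and Dnajc6, Hspa12a and the endothelial Hsp70 relative Hspa12b were lower (-1.79 ± 0.18, -1.88 ± 0.33 and -1.78 ± 0.54, adjusted p = 1.42e-05, 0.00067 and 0.0175). Hspa12b lost its call without animals 79 or 154 (0.055 and 0.0921). After subtraction 25 were higher and 16 lower of 64, where 30.2% and 29% of all genes were. These included all 35 called before, and the folds were larger (Dnajc6 -2.91, Hspa12a -3.29, Hspa2 2.44). The subtraction takes the flow-through counts off the HA IP side of this comparison only, which by itself widens the folds. Kept calls and larger folds are therefore no separate check between the fractions.

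**Figure D5:**
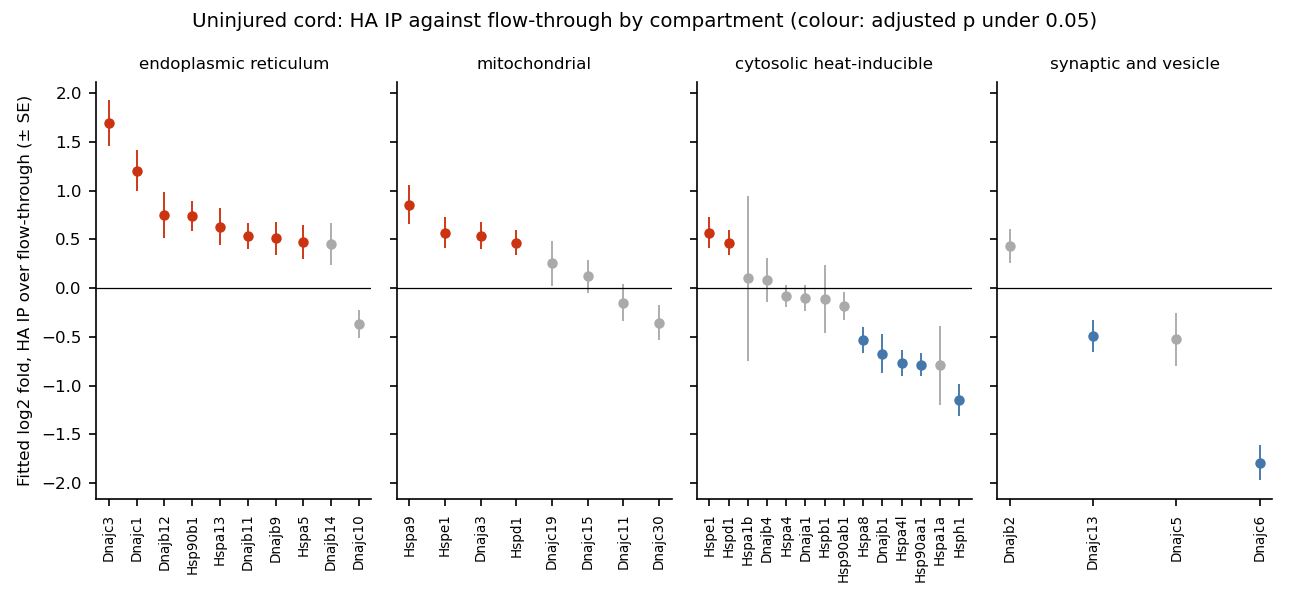
Fitted log2 difference of HA IP over flow-through in uninjured cord (y axis, bars are the SE) for each tested member of 4 compartment lists, from counts as deposited, with called members in red (higher) or blue (lower). The ER members except Dnajc10 lie above 0, and Hsph1, Hsp90aa1, Hspa4l, Dnajb1 and Hspa8 below.

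In WT SCI, 3 of 48 members were higher in HA IP than in flow-through and 0 lower, where 4.09% and 2.16% of all genes were called (median 0.02 beside 0.07). These were Hspb6 (3.15 ± 0.54, adjusted p = 0.00119), Hspa2 (3.22 ± 0.93, adjusted p = 0.0411) and Dnajc3 (1.73 ± 0.47, adjusted p = 0.0315). All 3 were called after subtraction too, which is no separate check between the fractions. Hspa2 was 69.7 CPM in animal 9935 and 1.58 to 16.4 CPM in the others, and without that animal it gave 1.74 (adjusted p = 0.373). The Hspa2 call was also lost without 9874 or 9843 (0.0603 and 0.154) and by DESeq2 (0.0679), and that of Dnajc3 without 9935, 9874 or 9596 (0.0799, 0.205 and 0.124). In STAT3-CKO SCI, 2 of 61 were higher, Hspb6 (1.66 ± 0.45, adjusted p = 0.0214) and Hspa2 (1.72 ± 0.49, adjusted p = 0.0293), and 1 lower, Hspa12a (-1.18 ± 0.38, adjusted p = 0.0492), where 7.12% and 4.7% of all genes were called (median 0.12 beside 0.03). Each call was lost without at least 1 animal (0.0568 to 0.275), and that of Hspa12a with RLE scaling (0.052). With each animal as a block, 5 members were called in WT SCI, adding Hspb1 (2.23, adjusted p = 0.00904) and Hspa8 (-0.61), and 11 in STAT3-CKO SCI. In uninjured cord the block gave 27 higher and 17 lower, all 35 earlier calls among them. Dnajc5 was then called lower in HA IP (-0.49, adjusted p = 0.000969). The shares of all genes called with the block are not given here.

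The injury change differed between fractions for 2 of 66 members, both higher in HA IP, with 0 lower, where 2.67% and 2.03% of all genes were called (median 0.44 beside 0.26). This main fit had no term for the animal either. For Hspb6 the difference was 2.80 ± 0.55 (adjusted p = 0.00197, 2.99 after subtraction, adjusted p = 0.000609). Flow-through Hspb6 was 11.2, 10.6, 10.2 and 8.16 CPM in uninjured and 7.88, 3.87, 6.64 and 2.73 CPM in WT SCI (-1.07 ± 0.49, adjusted p = 0.0955), a direction opposite to HA IP. For Hspa4l the difference was 1.97 ± 0.50 (adjusted p = 0.0153, 2.38 after subtraction), and it was lost without uninjured animals 79, 65 or 154 (0.0586, 0.0698 and 0.0508). After subtraction 6 members were higher and 0 lower, where the shares of all genes were also larger, at 6.05% and 4.22%. Subtraction alters the folds between the fractions by itself, so its values are no separate check of this difference. The added ones were Hspb1 (2.21, adjusted p = 0.0485), Dnajc6 (2.41, adjusted p = 0.0248), Dnajc21 and Dnajc17. For Hspb1 as deposited it was 1.98 ± 0.74 (adjusted p = 0.13) and 3.46 without animal 9935 (adjusted p = 0.000369). With the animal as a block 8 members were called, Hspb1 among them (2.48, adjusted p = 0.00475), and the share of all genes is not given here. The genotype change differed between the fractions for 0 members in either direction by edgeR (0 of 66, 4 at an unadjusted p under 0.05, 0 by DESeq2), where 0.0066% and 0.0198% of all genes were called. The median was -0.10 beside -0.12.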

How the data were processed

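The authors deposited 5 tables of 24060 gene rows, and the values used are raw counts per gene and library, per the file headers. Without saying what each was for, the submitters' processing notes list edgeR, the mm10 build and CASAVA 1.8.2. Alignment, counting and strand settings are not given in the sources used, so reads of overlapping genes cannot be assigned. Per the labels' protocols, cDNA was made from 5 ng of RNA and libraries from 300 ng of cDNA with 10 PCR cycles. No use was made of 124 further columns with values of samples. Groups and animal numbers came from the labels, and each animal was 1 replicate. Libraries of a group differed by more than counting noise (lowest chi-square per degree of freedom 4.68).

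Within each fraction the 11 libraries entered 1 fit. The fractions of 1 condition entered another, and all 22 libraries entered the fit of differences between fractions. In the main results these fits between fractions had no term for the animal and so left the pairing out. Genes passed filterByExpr and libraries were TMM-scaled. Two-sided quasi-likelihood tests came from edgeR 4.0.16 (R 4.3.3), with Benjamini-Hochberg adjustment over all genes tested. Only the comparison of WT SCI with uninjured within each fraction was tried on simulated data, drawn without shared counts, and the fits between fractions were not. Alternatives were RLE scaling, no filter, DESeq2 1.42.0, ribosomal rows removed, 2 groups in the fit, the Rn45s share as a covariate, the animal as a block, each replicate left out and, added after seeing the data, subtraction of the same animal's flow-through counts from HA IP with negative values set to 0. Both fractions come from the same animal, so the animals pair the samples. The correlation of their deviations from group means was 0.23 to 0.758, and 0.0212 to 0.47 after subtraction. Exon lengths for RPKM are the union of GENCODE vM21 exons (GRCm38).

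The members, the lists of families, compartments, related genes and cell type markers, and the tests were chosen with earlier results of these data known. Named are up to 6 called members per direction in comparisons within a fraction and up to 4 in the others, 18 members fixed by name, up to 2 called genes per direction of the related lists, Hsf1, Cryab, Stat3 and Gfap. Hspb2, Hspb11, Dnajc4, Dnajc10, Dnajc12, Dnajc21 and Dnaja3 were named after their values were seen. Intervals for ratios of counts are exact at 95% and cover counting error only. Counts were summed over the animals of a group, so the spread between animals is left out and the intervals are too narrow for group differences. The labels describe no molecular identifiers.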

Additional observations from a re-analysis of the deposited data

Results flagged for a closer look

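In 122 groups of 4 libraries with enough counts, 10 held a value far from the other 3 by Dixon's test, where chance flags about 1 in 20 groups. In HA IP of WT SCI these were Dnajc15 at 13.6 CPM in animal 9843 (the others 0.339 to 0.978), Dnajc17 at 16.9 CPM in animal 9935 (0.792 to 3.14), Dnajc24 at 4.07 CPM in animal 9874 (0.326 to 0.872) and Hspb8 at 23.9 CPM in animal 9874 (13.6 to 15.3). In uninjured HA IP, Dnajb13 was 0.38 CPM in animal 154 (0.22 to 0.235). In WT SCI flow-through, Hspb1 was 108 CPM in animal 9935 (8.86 to 10.3), Hspa9 was 21.7 CPM in animal 9935 (45.7 to 46.0), and Hsp90aa1 and Hspa2 were 124 and 7.84 CPM in animal 9596 (53.2 to 64.3 and 0 to 0.774). In uninjured flow-through, Hspb8 was 3.02 CPM in animal 42 (9.99 to 10.9). The injury change differed between HA IP and flow-through by a log2 of 2.80 for Hspb6 and 1.97 for Hspa4l (edgeR interaction, adjusted p = 0.00197 and 0.0153).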

How the results depend on the processing

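No called gene result changed direction under any alternative. For named genes that were called, leaving out 1 library or animal kept the call in 408 cases and ended it in 136, and the other alternatives in 434 and 26. For those not called, they made a call in 8 of the first kind and 30 of the second, against 1032 and 920 without one. Members called when 1 library or animal was left out, with the count over all animals first: HA IP WT SCI against uninjured 12 (7 to 16), STAT3-CKO SCI against WT SCI 2 (1 to 4), STAT3-CKO SCI against uninjured 1 (0 to 0), the same 3 in flow-through 16 (12 to 17), 1 (0 to 2) and 4 (0 to 4), HA IP against flow-through 35 (21 to 35), 3 (1 to 2) and 3 (0 to 4) in uninjured, WT SCI and STAT3-CKO SCI, injury difference 2 (1 to 3), genotype difference 0 (0 to 0). Other settings moved these counts by over 1.5 times as follows, and the cause was not tested. Except where stated, the shares of all genes called under these settings are not given here, so the counts cannot be set against them. DESeq2 called 6 and 3 members in the HA IP comparisons of STAT3-CKO SCI with WT SCI and with uninjured, and 2 and 9 in the flow-through ones. With 2 groups in the fit the same 4 gave 1, 11, 0 and 8. The Rn45s covariate gave 1 in HA IP and 0 in flow-through between genotypes. Against uninjured, STAT3-CKO SCI HA IP had 0 with RLE scaling, with no filter, after subtraction and with ribosomal rows removed. No filter gave 2 in flow-through between genotypes. Subtraction gave 6 for the injury difference, where 6.05% and 4.22% of all genes were called higher and lower. The replicate block gave 5 in WT SCI and 11 in STAT3-CKO SCI between fractions and 8 for the injury difference, where pairing by animal rests partly on the shared counts described above, and it ended no call. RLE scaling shifted the median of all genes by -0.12 and -0.16 in flow-through WT SCI and STAT3-CKO SCI against uninjured, and by -0.20 for the injury difference. WT SCI flow-through, with 744 to 4056 member counts per library, limits what could be detected there.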
